A study of Mus musculus with 72 samples.

Results

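Experiment 7 of this mouse colitis series set 8 mice that received TNFR-Ig together with an antibody to TWEAK against 8 mice that received a control antibody. These 16 colon arrays were taken by their labels from 34 arrays of experiment 7 and 72 arrays in the whole series. All were wild-type Balb/c mice with colitis from TNBS (70 µg/g in PBS and ethanol), a hapten given into the rectum on day 0, and all were killed on day 4. The agents were injected into the peritoneum shortly before TNBS. The control group received control IgG2a, an antibody to human CD20, at 10 mg/kg. The combination group received TNFR-Ig, a soluble TNF receptor joined to an antibody tail and labelled TNFR-Fc in places, at 0.3 mg/kg, together with the anti-TWEAK antibody mP2D10 at 10 mg/kg. The labels list no control IgG for the combination mice. The dose of TNFR-Ig was chosen by the submitters as one with a weak effect. Other groups used for comparison were 4 untreated mice, which had TNBS and no agent, 6 mice given TNFR-Ig alone and 8 given anti-TWEAK alone in experiment 7, and 7 control IgG, 7 combination and 8 naive mice in experiment 10, a separate run of the protocol. Titles describe the naive mice as without disease or treatment, although another label lists the combination for them. Sex, age and the hour of killing are not given in the sources used here. Each array is a piece cut from a frozen, rolled colon.

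TNF and TWEAK are related cytokines that act through different receptors. TNF binds the receptors encoded by Tnfrsf1a and Tnfrsf1b, while TWEAK binds Fn14, the product of Tnfrsf12a, which is low in resting epithelium and induced in injured tissue. Both routes pass through TRAF and cIAP adaptor proteins to NF-kB, a family of transcription factors that sit in the cytoplasm until their inhibitors are degraded. NF-kB then switches on chemokines, cytokines, adhesion molecules and its own inhibitors. TNBS causes an acute colitis in which neutrophils and monocytes fill the wall. The comparison asks which transcripts differ in inflamed colon when both cytokines are blocked.

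The values are log2 signals as deposited, 1 probe set per gene, with a floor of 2.08 below which no value lies. A gene is called different where limma's adjusted p is below 0.05. Array medians ran from 4.63 to 4.77 in the control group and from 4.60 to 4.77 in the combination group (exact permutation test, two-sided p = 0.272). The share of values at the floor averaged 37.6% in the control and 37.5% in the combination group (exact permutation test, two-sided p = 0.0437). Colon markers matched the label: the epithelial adhesion gene Epcam had medians of 14.78 in control and 14.73 in combination mice, the intestinal transcription factor Cdx2 14.18 and 14.16, and the mucin Muc2 14.44 and 14.45. RNA of other tissue was also present and was unequal between the groups. Pancreatic enzyme genes averaged 3.80 to 7.38 on the control arrays and 4.27 to 13.42 on the combination arrays, where replicates 1, 2, 3, 5 and 6 lay above every control. Seminal vesicle genes were on in combination replicates 5 to 8 and in no control. File numbering placed combination replicates 7 and 8 in the array set that holds every array of experiment 10, apart from the rest of experiment 7. In pieces of whole tissue, fewer cells of a type and less RNA per cell cannot be told apart, and nothing beyond the label says how the mice were housed or grouped.

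The combination mice had lower Il1b, Ccl3 and other inflammatory transcripts, lower chaperones, higher clock repressors and outputs with lower Arntl, higher CD3 genes, and a lower level of the TWEAK receptor gene. Of 12534 genes tested, 1059 differed (8.45%), 373 higher (2.98%) and 686 lower (5.47%) with the combination. Most changes were small. The median size among the called genes was 0.34 on the log2 scale, and 76 reached at least 1 log2 unit, 46 higher and 30 lower. The median over all genes was -0.01. In 66 genes (0.527%) the 8 combination values and the 8 control values did not overlap at all, 27 higher and 39 lower. The number of calls depended on single arrays. It was 2438 without combination replicate 1, and 698, 636 and 628 without combination replicates 2, 6 and 7. It was 560, 502 and 666 without control replicates 1, 2 and 6. It fell to 515 without combination replicates 7 and 8, and to 80 without the 4 arrays holding seminal vesicle transcripts, which leaves 4 combination mice against 8. Without the 5 arrays highest in pancreatic RNA it was 1521, and the share of higher genes among the calls was 49.4% in place of 35.2%. That fit keeps 3 combination mice against 8, among them replicates 7 and 8, which also hold seminal vesicle transcripts. With the spread taken from these 16 arrays alone 311 genes were called.

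Calls of single genes depended on the same arrays. Of 101 called genes followed singly, 79 no longer passed without the 4 arrays holding seminal vesicle transcripts, 45 without combination replicates 7 and 8, 34 without the 5 arrays highest in pancreatic RNA, and 52 with the spread from the 16 arrays alone. The 22 that still passed without the seminal vesicle arrays were Arntl, C2, Cd3d, Cd3g, Ciart, Crem, Cry1, Dnaja1, Gimap3, H3f3b, Hbb-b2, Hsph1, Lef1, Leo1, Noa1, Npas2, Per3, Pipox, Rapgefl1, Rbm14, Tef and Xrn1. No other of the 101 genes passed there, and that fit has 4 combination mice in place of 8. Among the genes described below, Il1b, Ccl3, Ccl20, Cxcl2, Cxcl3, S100a8, S100a9, Clec4e, Acod1, Hdc, Nlrp3, Ptgs2, Cebpb, Ikbkg, Per2, Pdia4, Cad, Exo1, Cdc6, Creb3l1, Fap, Ero1a, Pfkp, Abcb1a and Svs2 did not pass without combination replicates 7 and 8. Cxcl2, Cxcl3, Nlrp3, Cebpb, Nfil3, Npas2, Cry1, Hlf, Hspa8, the CD3 genes, Lef1, Itgae, H2-Aa, H2-Eb1, Spdef, Fap and Cela3b did not pass without the 5 arrays highest in pancreatic RNA. Wherever those 5 arrays are left out below, 3 combination mice remain, so such values do not isolate the part of pancreatic RNA.

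Tnfrsf12a, the gene of the TWEAK receptor Fn14, was lower in the combination mice. It ran from 7.74 to 9.53 in control mice, with a median of 9.02, and from 7.24 to 8.92 in combination mice, with a median of 7.77. The ranges overlapped because of 2 mice, combination replicate 1 at 8.92 and control replicate 3 at 7.74. The difference was -1.08 ± 0.23 (SE) on the log2 scale, 2.12-fold lower (limma adjusted p = 0.0066), and a second probe set gave -1.01. It passed whichever 1 of the 16 mice was left out. Untreated mice had a median of 8.98, TNFR-Ig mice 8.55 and anti-TWEAK mice 8.86, while naive mice of experiment 10 had 7.38. The combination was also below untreated mice by 1.06 ± 0.28 (limma adjusted p = 0.0251), but its differences from TNFR-Ig alone (-0.73 ± 0.25, limma adjusted p = 0.137) and from anti-TWEAK alone (-0.94 ± 0.23, limma adjusted p = 0.0558) did not pass. Without the 4 arrays holding seminal vesicle transcripts the difference from control was -1.002 (limma adjusted p = 0.0985).

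The rest of the pathway moved little. Of 14 TNF and TWEAK pathway genes tested, 1 was lower and 1 higher, near the background share, and their median change was -0.06. The higher one was Ikbkg, which encodes the NEMO subunit of the IkB kinase. It ran from 9.96 to 10.22 with a median of 10.12 in control mice and from 10.13 to 10.79 with a median of 10.30 in combination mice, where 7 of 8 lay above every control. The difference was 0.25 ± 0.07 (limma adjusted p = 0.0193), but 3 other probe sets of Ikbkg gave -0.11, -0.09 and -0.05 and did not pass, so the probe sets disagree. The TNF receptor genes Tnfrsf1b (-0.44 ± 0.17, limma adjusted p = 0.0853) and Tnfrsf1a (-0.17, limma adjusted p = 0.452) did not pass. Neither did Ltbr, the lymphotoxin beta receptor, at -0.07. The adaptors Traf2 (-0.27), Traf1 (-0.05) and Tradd (-0.07), the ubiquitin ligases Birc2 (0.04) and Birc3 (-0.01), and the kinase genes Ikbkb (0.01), Map3k7 (-0.04) and Tab2 (0.06) had adjusted p-values from 0.194 to 0.974. Combination replicate 7 stood apart as the highest of its group for Birc3 and Ikbkb and the lowest for Traf1, so these means lean on that array. Cd163, a scavenger receptor that can take up TWEAK, gave -0.08 ± 0.35. Tnf itself was at the floor in 6 of 8 control and 7 of 8 combination mice, and Lta, Ltb, Map3k14 and Rel were too dim to test. Tnfsf12, the TWEAK gene, and Ripk1, Traf3 and Chuk were not analysed here.

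Among NF-kB subunits and their feedback genes, 1 of 13 differed, near the 8.45% of all genes. Bcl3, a nuclear IkB-like cofactor of the p50 and p52 subunits, ran from 9.17 to 10.09 with a median of 9.51 in control mice. In combination mice it ran from 8.51 to 9.37 with a median of 8.88, and 6 of 8 mice were below every control. The difference was -0.66 ± 0.15, 1.58-fold lower (limma adjusted p = 0.0082), and -0.68 without the seminal vesicle arrays (limma adjusted p = 0.0732). The inhibitors and brakes Nfkbia (-0.13), Nfkbib (-0.19), Nfkbie (-0.23), Nfkbiz (-0.08), Tnfaip3 (-0.29), Tnip1 (0.01), Cyld (0.11), Otud7b (0.08) and Zc3h12a (0.46), and the subunits Rela (-0.08), Relb (0.11) and Nfkb2 (0.07), did not pass (limma adjusted p from 0.0599 to 0.97). Combination replicate 7 stood apart as the highest of its group for Tnfaip3, Tnip1, Rela and Relb, which raises their combination means. Probe sets disagreed for Cyld, where dimmer ones gave 0.36 and -0.31, and for Nfkb2, where a dimmer one gave -0.34. Genes listed as targets of the noncanonical NF-kB route had 0 of 7 called, with 1 below 0, 6 above 0 and a median of 0.12.

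Targets of the classical NF-kB route were mostly below 0, in 25 of 29 tested, with a median change of -0.64 against -0.01 for all genes. Of these 29, 3 were called lower and 2 higher, against 5.47% of all genes lower and 2.98% higher. The kappaB motif GGGNNNNNCC, searched on both strands, was present in 16 of the 24 promoters listed for 20 of these targets, and in 45.8% of all 32851 promoters. Promoters are the 250 bases before the start in RefSeq's table for GRCm38.p6. A pair that moved in opposite directions is shown, Cxcl2 (chr5:90903649-90903898, plus strand), a neutrophil chemokine that was lower, and Ccl20 (chr1:83116516-83116765, plus strand), a chemokine for lymphocytes and dendritic cells that was higher. Capitals mark matches to the motif, some of which overlap.
Cxcl2: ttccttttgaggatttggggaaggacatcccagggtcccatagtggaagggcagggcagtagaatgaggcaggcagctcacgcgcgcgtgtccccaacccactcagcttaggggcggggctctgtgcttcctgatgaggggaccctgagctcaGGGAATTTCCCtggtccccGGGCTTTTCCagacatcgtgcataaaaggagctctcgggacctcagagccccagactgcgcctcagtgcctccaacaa
Ccl20: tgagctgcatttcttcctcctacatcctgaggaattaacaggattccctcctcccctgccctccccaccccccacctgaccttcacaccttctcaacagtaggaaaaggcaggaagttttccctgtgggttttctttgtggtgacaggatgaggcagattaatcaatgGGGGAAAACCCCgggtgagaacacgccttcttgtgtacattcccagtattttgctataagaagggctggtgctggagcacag
A match describes letters and not binding. Both promoters hold the motif, and the promoter of Il1b, which was also lower, holds none in this window.

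Il1b, the gene of the cytokine interleukin 1 beta, was among the genes with the lowest levels in combination mice relative to control. The 8 control mice ran from 12.79 to 13.77 with a median of 12.93. The combination mice had 12.58, 10.36, 8.04, 11.60, 13.32, 11.15, 10.67 and 7.52 in replicates 1 to 8. All but replicate 5 were below every control, and replicates 3 and 8 were far below the rest. The difference was -2.45 ± 0.64, 5.48-fold lower (limma adjusted p = 0.0196). Untreated, TNFR-Ig and anti-TWEAK mice had medians of 12.68, 12.84 and 12.84, and naive mice 2.73. Against the single agents the difference of the combination was -2.09 ± 0.69 from TNFR-Ig (limma adjusted p = 0.131) and -1.70 ± 0.64 from anti-TWEAK (limma adjusted p = 0.139), so a difference from either agent alone was not called.

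Chemokine and cytokine genes were lower in 4 of 23 tested and higher in 1, with a median of -0.96. Over all genes, 5.47% were lower and 2.98% higher. Ccl3, which attracts monocytes and granulocytes, ran from 11.67 to 13.08 with a median of 12.14 in control mice and from 4.33 to 12.26 with a median of 10.01 in combination mice. Its difference was -3.51 ± 0.93, 11.4-fold lower (limma adjusted p = 0.0203), with 7 of 8 combination mice below every control. The neutrophil chemokine Cxcl2 ran from 12.78 to 13.32 with a median of 13.003 in control mice and from 8.43 to 13.05 with a median of 12.00 in combination mice. It was 3.15-fold lower (-1.66 ± 0.52, limma adjusted p = 0.0452), also with 7 of 8 mice below every control. Its neighbour in function Cxcl3 was 5.48-fold lower (-2.45 ± 0.75, limma adjusted p = 0.0399). Both are near the threshold: of 16 repeats that each left out 1 mouse, Cxcl2 passed in 4 and Cxcl3 in 6, whereas Il1b and Ccl3 passed in all 16. Cxcl1 (-0.72, limma adjusted p = 0.395), Cxcl5 (-0.68), Cxcl10 (-0.96) and Il6 (-1.33, limma adjusted p = 0.388) did not pass. Ccl20 went the other way, from 2.08 to 4.80 with a median of 3.55 in control mice and from 4.09 to 8.23 with a median of 4.98 in combination mice. The difference was 1.91 ± 0.51, 3.75-fold higher (limma adjusted p = 0.0212).

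**Figure D1:**
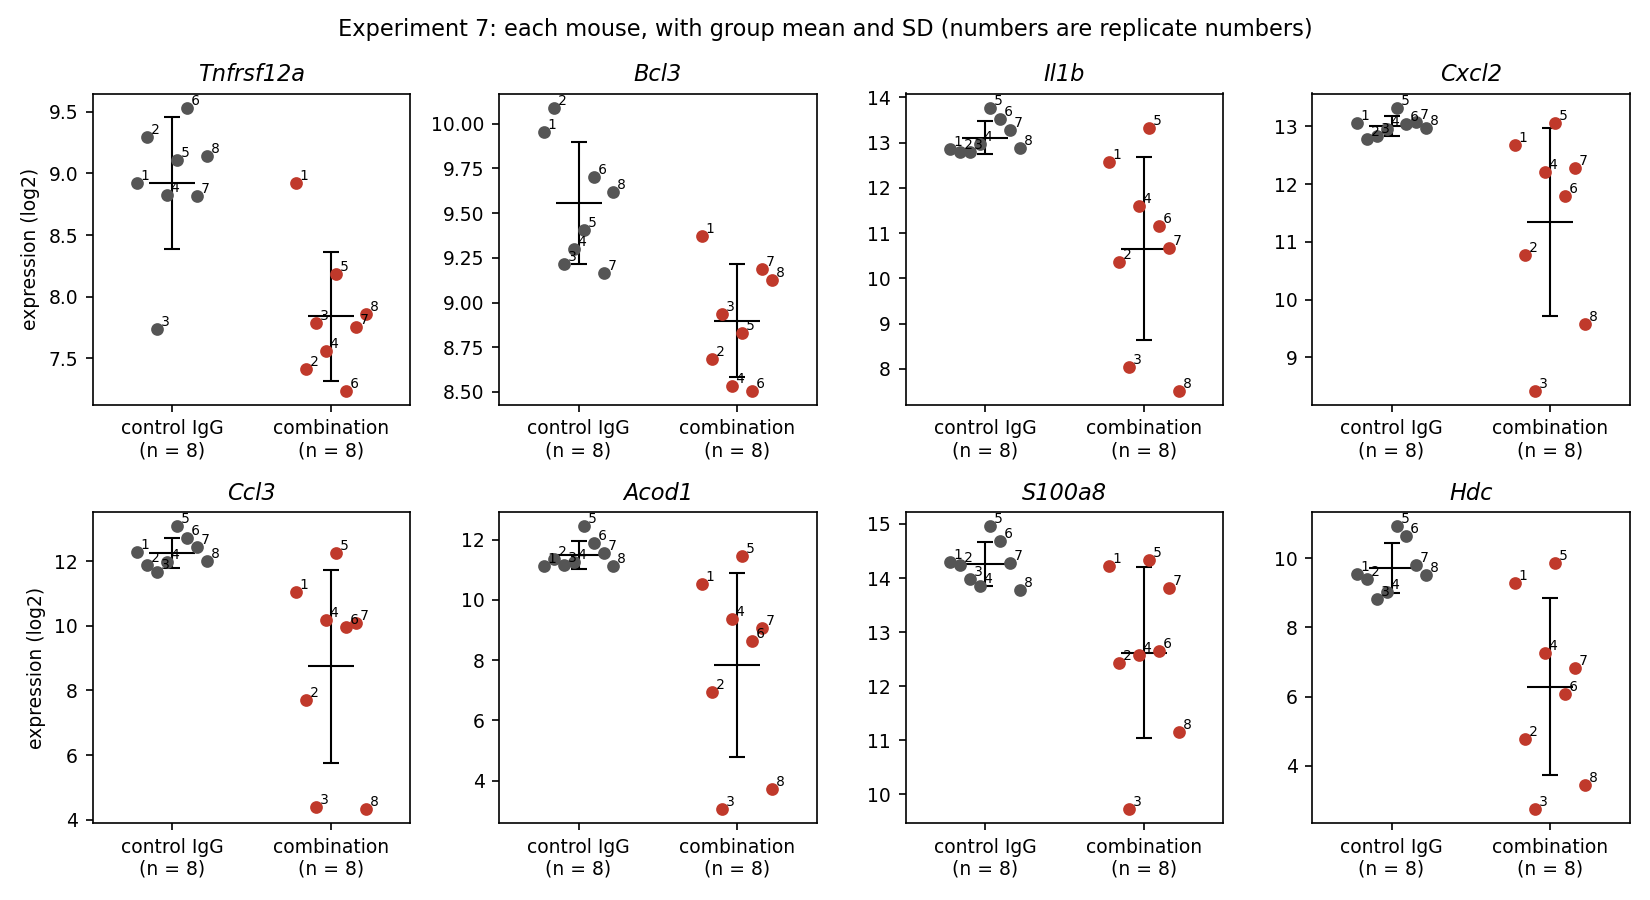
Log2 signals of 8 genes on the y axis for each control IgG mouse (gray) and combination mouse (red) of experiment 7, with replicate numbers, the group mean as a horizontal line and the SD as bars. For Il1b, Cxcl2, Ccl3 and Acod1, 7 of 8 combination mice lie below the lowest control mouse, and combination replicate 5 does not.

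Markers of neutrophils, the short-lived granulocytes that dominate acute colitis, leaned the same way, but few passed. All 16 members tested had a difference below 0, with a median of -1.76, and 3 were called lower, against 5.47% of all genes. S100a8, a subunit of the calcium-binding protein calprotectin, ran from 13.78 to 14.96 with a median of 14.26 in control mice and from 9.73 to 14.34 with a median of 12.61 in combination mice. Its difference was -1.64 ± 0.52, 3.13-fold lower (limma adjusted p = 0.0442). Replicates 1, 5 and 7 stayed within the control range, at 14.22, 14.34 and 13.82, and replicate 3 was lowest. The partner subunit gene S100a9 was 2.61-fold lower (-1.38 ± 0.41, limma adjusted p = 0.0349). Clec4e, a receptor for fungal and mycobacterial lipids on myeloid cells, gave -3.51 ± 1.04 (limma adjusted p = 0.0344), but a second probe set gave -0.82 and did not pass. The collagenase gene Mmp8 (-3.75 ± 1.29, limma adjusted p = 0.06), the decoy interleukin 1 receptor gene Il1r2 (-2.50 ± 0.85, limma adjusted p = 0.0589), Trem1 (-2.17), the chemokine receptor gene Cxcr2 (-2.02) and Lcn2 (-1.87 ± 0.72) did not pass. The neutrophil list rests on single mice. Its count was 9 without combination replicate 1 and 8 without replicate 5. It was 0 without any 1 of combination replicates 2, 3, 6 and 8 or control replicates 1, 2, 5 and 6.

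Further single genes known from activated myeloid cells were lower. Acod1, whose enzyme makes itaconate in activated macrophages, ran from 11.13 to 12.45 with a median of 11.31 in control mice. In combination mice it ran from 3.06 to 11.45 with a median of 8.85, and 7 of 8 lay below every control. The difference was -3.65 ± 0.95, 12.5-fold lower (limma adjusted p = 0.0192). Hdc, the enzyme that makes histamine, gave -3.43 ± 0.94 (limma adjusted p = 0.0244), with medians of 9.53 in control and 6.46 in combination mice. The inflammasome gene Nlrp3 was at the floor in 6 of 8 combination mice and ran from 2.997 to 3.88 in control mice. It was called lower (limma adjusted p = 0.0216), and the size of the difference depends on where the floor lies. Ptgs2, the inducible cyclooxygenase, gave -0.93 ± 0.27 (limma adjusted p = 0.03), and a dimmer probe set of the same gene gave -3.85. Cebpb, a transcription factor of myeloid and injured epithelial cells, gave -0.86 ± 0.26 (limma adjusted p = 0.0377), and Slpi, a protease inhibitor of mucosal surfaces, -0.92 ± 0.26 (limma adjusted p = 0.03). Broader monocyte and macrophage markers had 1 of 24 lower, near the 5.47% of all genes, and a median of -0.18. Interferon-stimulated genes had 0 of 25 called, against 8.45% of all genes, and a median of 0.29. Acod1, Ccl3 and Il1b kept their direction without combination replicates 7 and 8 or without the arrays holding seminal vesicle transcripts, where their limma adjusted p-values ran from 0.0549 to 0.0856.

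The circadian clock genes had the largest share of calls among the lists with more than 10 genes tested. In the clock, the activators encoded by Arntl (BMAL1), Clock and Npas2 bind E-boxes and switch on the Per and Cry repressors, the REV-ERB repressors Nr1d1 and Nr1d2, and the output factors Dbp, Tef and Hlf, which bind D-boxes. Ciart is a further repressor of the activators. The sources used here do not give the hour of killing. Of 14 clock genes tested, 8 were higher and 3 lower in the combination mice, against 8.45% of all genes called. The lower ones were the activators Arntl and Npas2 and the repressor Cry1, and the higher ones were other repressors and the output factors.

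Arntl did not overlap between the groups. It ran from 9.17 to 9.82 with a median of 9.30 in control mice and from 7.47 to 8.77 with a median of 8.08 in combination mice. The difference was -1.31 ± 0.15, 2.48-fold lower (limma adjusted p = 1.39e-05). The medians of the other groups of experiment 7 lay within the control range or just below it, at 9.36 in untreated, 9.18 in TNFR-Ig and 9.14 in anti-TWEAK mice. The combination lay below each of them, by 1.24 ± 0.19 against untreated (limma adjusted p = 0.000921), by 1.10 ± 0.16 against TNFR-Ig (limma adjusted p = 0.0018) and by 1.02 ± 0.15 against anti-TWEAK (limma adjusted p = 0.00234). Npas2, which can take the place of Clock as partner of BMAL1, was lower by 0.54 ± 0.11 (limma adjusted p = 0.00419), with 7 of 8 combination mice below every control. Cry1, a repressor, was lower by 0.44 ± 0.11 (limma adjusted p = 0.0124). Clock itself gave -0.13 (limma adjusted p = 0.0553).

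The promoters of a repressor and a period gene that were higher are shown because they carry the letters that the clock factors are known to read. The E-box CACGTG was present in 5 of the 18 promoters listed for 13 clock genes, and in 6.02% of all promoters. The D-box TTATGTAA was present in 1 of 18, and in 0.82% of all promoters. Ciart (chr3:95882229-95882478, minus strand) holds 3 E-boxes and Per3 (chr4:151044666-151044915, minus strand) holds 2 D-boxes, in capitals.
Ciart: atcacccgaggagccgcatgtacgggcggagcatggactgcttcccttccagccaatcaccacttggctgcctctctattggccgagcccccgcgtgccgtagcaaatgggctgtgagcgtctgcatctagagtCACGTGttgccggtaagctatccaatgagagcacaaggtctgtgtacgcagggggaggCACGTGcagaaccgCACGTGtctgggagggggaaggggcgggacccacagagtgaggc
Per3: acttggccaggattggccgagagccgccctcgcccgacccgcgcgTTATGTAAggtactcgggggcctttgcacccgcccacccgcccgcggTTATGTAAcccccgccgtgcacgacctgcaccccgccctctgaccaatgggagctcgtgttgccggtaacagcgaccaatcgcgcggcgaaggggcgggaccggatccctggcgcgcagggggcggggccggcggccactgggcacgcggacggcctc
Cry1, which was lower, also holds an E-box, while Dbp, Cry2, Hlf and Nr1d2, which were higher, hold neither motif in this window. The sequences are those of the reference and were not measured in these mice.

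Ciart ran from 2.90 to 4.62 with a median of 3.54 in control mice and from 4.35 to 6.99 with a median of 5.65 in combination mice, where 7 of 8 lay above every control. The difference was 2.03 ± 0.33, 4.07-fold higher (limma adjusted p = 0.00108). Per3 ran from 10.15 to 10.63 with a median of 10.44 in control mice and from 10.67 to 11.88 with a median of 11.53 in combination mice, with no overlap. It was 2.06-fold higher (1.04 ± 0.17, limma adjusted p = 0.000821), and 3 further probe sets gave 1.14, 1.28 and 1.36. Tef ran from 10.82 to 11.166 in control and from 11.167 to 12.23 in combination mice, so that the groups met without overlapping (0.84 ± 0.14, limma adjusted p = 0.00108). Dbp, a sensitive output of the clock, had medians of 9.76 in control and 11.41 in combination mice. It was 2.85-fold higher (1.51 ± 0.36, limma adjusted p = 0.0123), and combination replicate 1, at 9.84, was the mouse that fell within the control range. Hlf (1.76 ± 0.48), Cry2 (0.77 ± 0.16), Per2 (0.45 ± 0.12) and Nr1d2 (0.44 ± 0.10) were higher with limma adjusted p-values from 0.00469 to 0.0243. Nr1d1 (0.63) and Per1 (0.59) did not pass. Naive mice of experiment 10 had medians of 12.24 for Dbp, 5.58 for Ciart and 9.16 for Arntl. The Arntl medians of control and combination mice in that experiment were 10.20 and 10.01. The clock counts held at 7 or 8 higher and 3 or 4 lower whichever 1 mouse of the 16 was left out. They were 3 higher and 3 lower without the arrays holding seminal vesicle transcripts, and 8 higher and 1 lower without the 5 arrays highest in pancreatic RNA, where Npas2 was at -0.31 and Cry1 at -0.30.

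**Figure D2:**
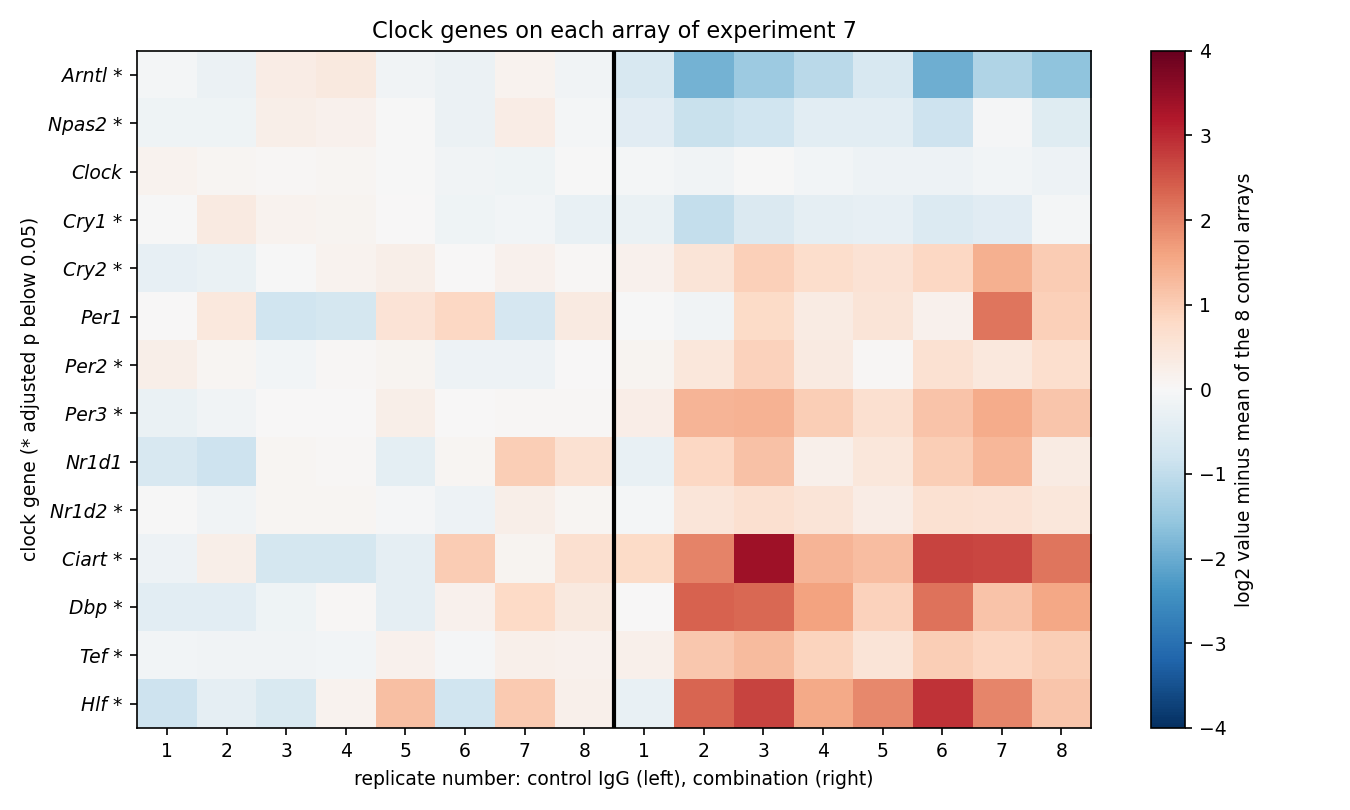
Log2 value minus the control mean (colour, blue below and red above) of the 14 clock genes (rows) in the 8 control IgG mice (left) and 8 combination mice (right) of experiment 7, with a star for genes at an adjusted p below 0.05. The Arntl row is below the control mean in all 8 combination mice, while Per3 and Tef are above it in all 8.

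Nfil3, a repressor of D-box genes that is also needed by several lymphoid lineages, was lower as well. It ran from 8.92 to 10.00 with a median of 9.52 in control mice and from 6.01 to 9.31 with a median of 7.24 in combination mice (-1.80 ± 0.50, limma adjusted p = 0.0243). Crem, a cAMP-responsive repressor, ran from 7.88 to 8.58 with a median of 8.20 in control mice and from 6.11 to 8.04 with a median of 6.91 in combination mice. Its difference was -1.20 ± 0.17, 2.30-fold lower (limma adjusted p = 0.000285), with 7 of 8 mice below every control, and a second probe set gave -1.57. Crem was below both single-agent groups too, by 1.00 ± 0.19 against TNFR-Ig (limma adjusted p = 0.0197) and by 0.97 ± 0.17 against anti-TWEAK (limma adjusted p = 0.0171).

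Markers of T cells, the lymphocytes that carry the CD3 receptor complex, were higher in 3 of 9 tested, against 2.98% of all genes. Their median was 0.76. Cd3g ran from 2.65 to 4.25 with a median of 3.26 in control mice and from 3.50 to 6.90 with a median of 4.65 in combination mice, where 6 of 8 were above every control. The difference was 1.53 ± 0.35, 2.89-fold higher (limma adjusted p = 0.00918). Cd3d gave 1.46 ± 0.36 (limma adjusted p = 0.0155) and Cd3e 0.82 ± 0.22 (limma adjusted p = 0.0226). The CD3 levels are low, and Cd4, Cd8b1, Cd5, Zap70 and Trat1 were at or near the floor in both groups. Other lymphocyte genes, chosen after their values were seen, were also higher. They were Lef1, a transcription factor of naive T cells (1.48 ± 0.34, limma adjusted p = 0.01), Itgae, an integrin of T cells in the epithelium (1.00 ± 0.25, limma adjusted p = 0.0176), and the lymphocyte chemokine Xcl1 (0.95 ± 0.24, limma adjusted p = 0.0162). A second probe set of Itgae gave 0.07 and did not pass. Combination replicate 2 was the highest for Cd3g, at 6.90. Its mean over the T cell markers was 6.39, against 4.76 to 5.13 in the other combination mice and 4.02 to 4.84 in control mice, and it also held the most pancreatic RNA of the 16 arrays, at a mean of 13.42. Without the 5 arrays highest in pancreatic RNA, Cd3g was at 0.74 (limma adjusted p = 0.193), Cd3d at 1.01 (limma adjusted p = 0.0968) and Cd3e at 0.48 (limma adjusted p = 0.207), and their part in the result was not tested further.

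MHC class II genes, through which antigen-presenting cells show peptides to helper T cells, were listed together with dendritic cell genes. That joint list had 2 of 9 higher, against 2.98% of all genes, and a median of 0.52. H2-Aa had medians of 10.94 in control and 11.52 in combination mice (0.64 ± 0.18, limma adjusted p = 0.0285), and H2-Eb1 10.50 and 11.20 (0.68 ± 0.20, limma adjusted p = 0.0354). H2-Ab1 (0.60, limma adjusted p = 0.0681) and Cd74 (0.49, limma adjusted p = 0.0649) did not pass. Without the 5 arrays highest in pancreatic RNA, H2-Aa was at 0.37 and H2-Eb1 at 0.28, and neither passed. B and plasma cell genes had 0 of 9 called and a median of 0.43.

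Chaperones, which fold proteins and rise with heat or secretory stress, were lower in 10 of 19 tested and higher in 0, against 5.47% of all genes lower. Hsph1, a cytosolic HSP70 exchange factor, did not overlap. It ran from 13.12 to 13.94 with a median of 13.58 in control mice and from 11.90 to 13.07 with a median of 12.82 in combination mice. The difference was -0.79 ± 0.13, 1.73-fold lower (limma adjusted p = 0.000821), and a second probe set gave -1.63. Hspa1a, the inducible HSP70, gave -0.82 ± 0.23 (limma adjusted p = 0.0262). Its constitutive relative Hspa8 moved by a small but even amount, from 14.87 to 15.02 in control and from 14.70 to 14.84 in combination mice, again with no overlap (-0.14 ± 0.03, limma adjusted p = 0.0093). Other probe sets of Hspa8 gave -0.16, which passed, and -0.06 and -0.37, which did not. In the endoplasmic reticulum, the HSP70 gene Hspa5 gave -0.30 ± 0.06 (limma adjusted p = 0.00358), its partner Sdf2l1 -0.64 ± 0.14 (limma adjusted p = 0.00905) and the disulfide isomerase Pdia4 -0.37. The cochaperone Dnaja1 (-0.36 ± 0.07) and Hsp90aa1 (-0.33 ± 0.07) were lower with limma adjusted p-values of 0.00437 and 0.0066. Other probe sets of Hsp90aa1 gave -0.29, which passed, and -0.10, which did not. The count was 7 to 12 lower whichever 1 mouse was left out, 8 without the 5 arrays highest in pancreatic RNA and 2 without the arrays holding seminal vesicle transcripts.

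The cell cycle list, which joins mitotic genes with genes of DNA replication and nucleotide synthesis such as the Mcm helicase subunits, Pcna, Rrm2 and Tyms, had 0 of 26 called by limma. All 26 members were below 0, with a median of -0.40. Its nearest to passing were the mitotic checkpoint kinase Bub1 (-0.58, limma adjusted p = 0.0575) and the ubiquitin-conjugating enzyme Ube2c (-0.40, limma adjusted p = 0.0589). A few genes outside that list, picked after their values were seen, were called lower. E2f2, a transcription factor of the entry into S phase, ran from 7.60 to 8.77 with a median of 8.49 in control mice and from 5.81 to 8.53 with a median of 6.75 in combination mice (-1.49 ± 0.32, limma adjusted p = 0.00722). Others were Dctd (-1.09 ± 0.26, limma adjusted p = 0.0134) and Cad (-1.02 ± 0.29, limma adjusted p = 0.0294), enzymes of pyrimidine synthesis, the exonuclease Exo1 (-1.11 ± 0.31, limma adjusted p = 0.0261) and the licensing factor Cdc6 (-0.98 ± 0.31, limma adjusted p = 0.0435). A second probe set of Exo1 gave -0.50 and did not pass (limma adjusted p = 0.213). Being chosen for their change, these genes say nothing about the process as a whole.

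Other single genes with non-overlapping groups included H3f3b, which encodes the replacement histone H3.3. It ran from 4.54 to 7.23 with a median of 6.40 in control mice and from 7.58 to 9.15 with a median of 8.15 in combination mice. The difference was 1.92 ± 0.32, 3.77-fold higher (limma adjusted p = 0.00112). Xrn1, the cytoplasmic RNA exonuclease, ran from 8.14 to 8.47 in control and from 8.66 to 9.10 in combination mice (0.50 ± 0.07, limma adjusted p = 0.000183). Rapgefl1 (1.13 ± 0.20, limma adjusted p = 0.00112) also did not overlap. Pipox, a peroxisomal oxidase, gave 1.03 ± 0.18 (limma adjusted p = 0.00112). Of the 101 called genes followed singly, 15 passed under every one of 13 alternative settings and whichever 1 of the 16 mice was left out. They were Arntl, Crem, Leo1, Hsph1, Rbm14, Noa1, Dnaja1, Xrn1, Tef, Pipox, Per3, Rapgefl1, Hbb-b2, H3f3b and Ciart.

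The epithelium and the supporting tissue showed few calls. The counts below stand beside 2.98% of all genes higher and 5.47% lower. Colonocyte genes had 0 of 29 called with a median of 0.03, enteroendocrine genes 0 of 14, tuft cell genes 0 of 5, and oxidative phosphorylation and fatty acid oxidation 0 of 23 each. The water channel gene Aqp8, often low in colitis, had medians of 10.83 in control and 11.30 in combination mice and did not pass (0.39, limma adjusted p = 0.328). Goblet cell genes had 2 of 16 lower, among them the secretory transcription factors Spdef (-0.62, limma adjusted p = 0.0254) and Creb3l1 (-0.28, limma adjusted p = 0.0203). Endothelial genes had 0 of 17, smooth muscle 0 of 16, complement 0 of 11 and proteases 0 of 18 called, the last with a median of -0.46. Matrix genes had 1 of 22 higher, the fibroblast protease Fap (0.44, limma adjusted p = 0.0185). Hypoxia and glycolysis genes had 3 of 16 lower, with small differences: Ero1a at -0.36, Pfkp at -0.23 and Hk2 at -0.21. Among xenobiotic genes, 2 of 21 were higher and 1 lower, including the efflux pump Abcb1a at 0.41 (limma adjusted p = 0.0192).

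**Figure D3:**
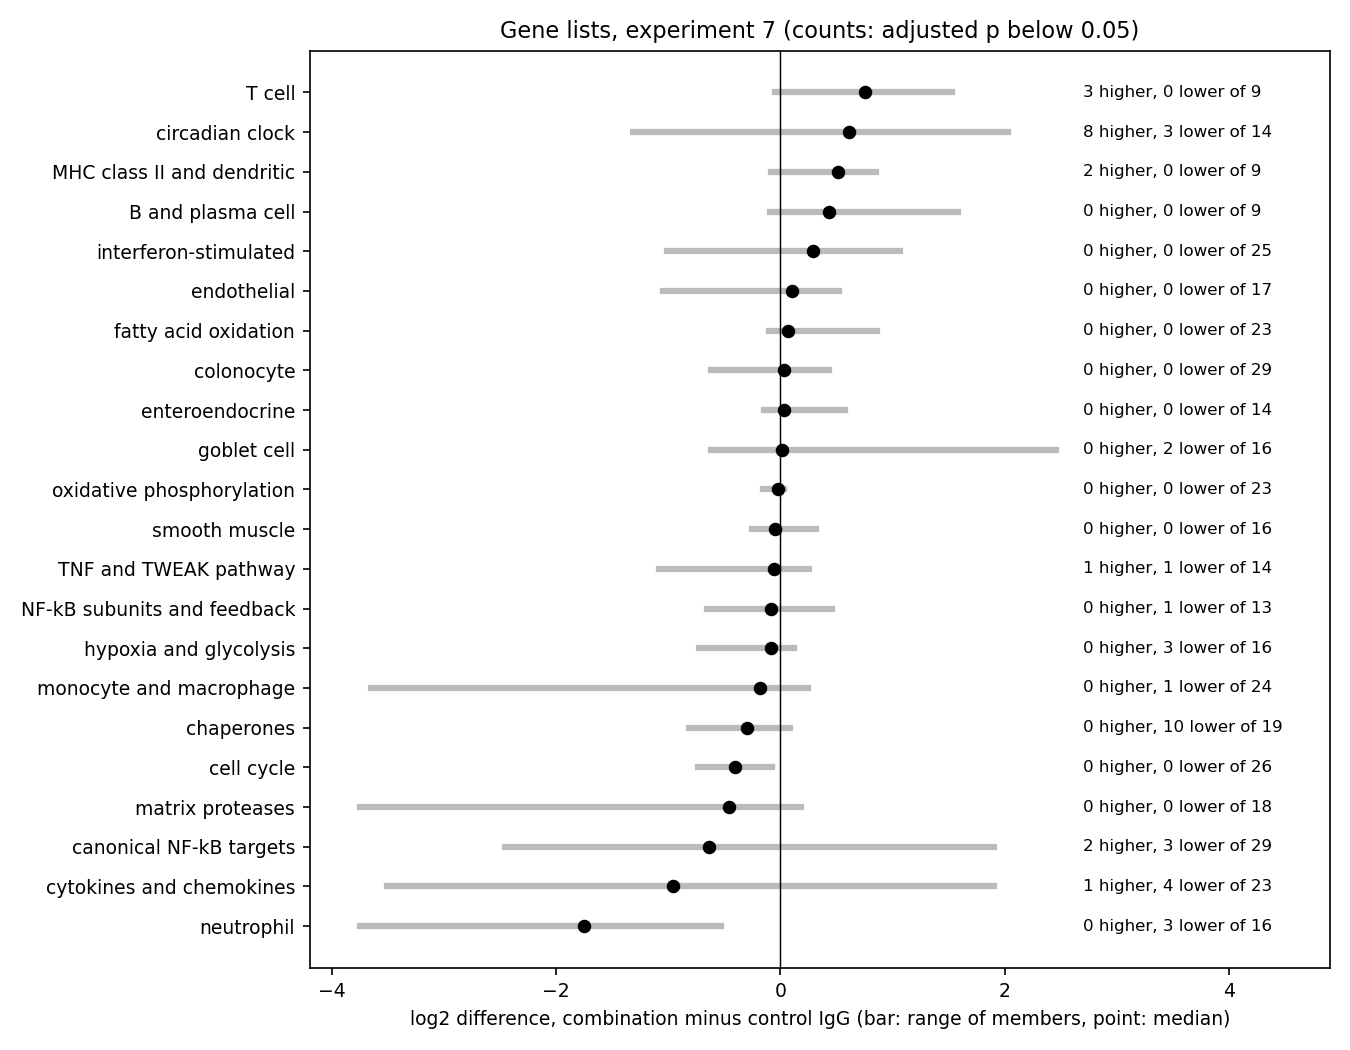
Log2 difference, combination minus control IgG in experiment 7 (x axis), for 22 of the gene lists (y axis), with the range of the tested members as a bar, their median as a point and the counts called at the right. The clock list, with 8 higher and 3 lower of 14, and the chaperone list, with 10 lower of 19, hold the largest shares of calls among the lists drawn.

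The largest rises in the comparison were genes of tissue other than colon. The 10 largest were enzymes of the exocrine pancreas and secreted proteins of the seminal vesicle or epididymis. Cela3b, a pancreatic elastase, was at or within 0.1 of the floor in 7 of 8 control mice and at 9.40 in replicate 8. The combination mice had 12.62, 14.11, 12.52, 8.49, 13.20, 10.72, 7.16 and 2.19 in replicates 1 to 8. The difference was 7.12 ± 2.00 (limma adjusted p = 0.0266), and 5 of 11 pancreatic genes tested were higher, against 2.98% of all genes. Untreated mice had a Cela3b median of 12.02, so pancreatic RNA was also present without any agent. Svs2, a seminal vesicle protein, was at the floor in all 8 control mice and in combination replicates 1 to 4, and at 14.70, 14.05, 12.22 and 9.57 in replicates 5 to 8 (5.28 ± 1.56, limma adjusted p = 0.0336). Because most values on 1 side are at the floor, these differences depend on where the floor lies. The haemoglobin gene Hbb-b2, which shares sequence with its paralogs, was higher by 1.73 (limma adjusted p = 0.00419), while the 3 blood and platelet markers tested were not called. Skeletal muscle (0 of 15), squamous epithelium (0 of 15) and fat genes (0 of 9) were not called.

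**Figure D4:**
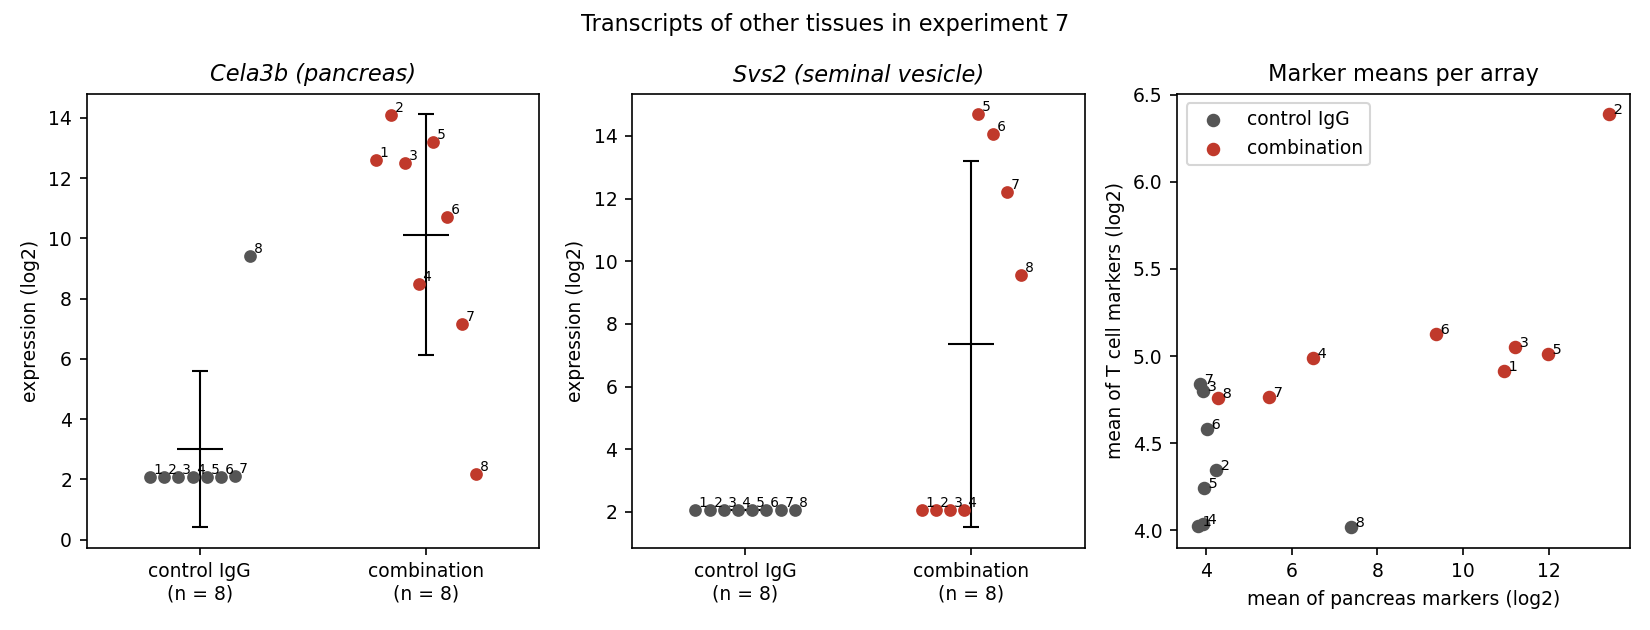
Log2 signals of Cela3b and Svs2 in each control IgG (gray) and combination mouse (red) of experiment 7, with the group mean and SD, and, at the right, the mean of T cell markers (y axis) against the mean of pancreas markers (x axis) per array, all with replicate numbers. Svs2 is above the floor in combination replicates 5 to 8 alone, and combination replicate 2 stands apart with a pancreas mean of 13.42 and a T cell mean of 6.39.

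Neutrophil means were uneven among the combination mice. They were 8.84, 6.67, 4.65, 6.85, 9.49, 6.99, 8.66 and 5.55 in combination replicates 1 to 8, against 8.22 to 10.86 in control mice. Replicates 1, 5 and 7 lay inside the control range and the other 5 below it. How they relate to the pancreatic and seminal vesicle signals was not tested. Across the 8 combination mice, S100a8 was set against 6 genes. Dbp was lower where S100a8 was higher (Pearson r = -0.715, exact permutation p = 0.0314, adjusted over 6 relations 0.188; Spearman rho = -0.762, p = 0.0368, adjusted 0.221), with r = -0.654 after leaving out the 2 mice farthest from the median. No relation passed after adjustment.

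Against untreated mice, which share the combination arrays with the comparison above, 876 genes differed (6.99%). The largest falls were myeloid genes, Ngp, a neutrophil granule protein (-6.02 ± 1.85, limma adjusted p = 0.0439), Prok2 (-4.07), Ifitm6 (-3.93), Wfdc21 (-3.02) and the inhibitory receptor gene Pilra (-2.71). The largest rises included Ciart (2.61, limma adjusted p = 0.00099), Dbp (2.12 ± 0.44, limma adjusted p = 0.00796) and Hlf (2.08), the helicase-like gene Ddx60 (2.48) and the cornified envelope gene Sprr2h (2.14). With 4 untreated mice the count moved strongly, to 140, 203 and 255 without untreated replicates 1, 2 and 3, to 1692 without untreated replicate 5, to 2008 without combination replicate 1, and to 525 and 519 without combination replicates 4 and 6. It was 43 without the seminal vesicle arrays, 405 without combination replicates 7 and 8, 1881 without the arrays highest in pancreatic RNA, and 0 by limma with the spread taken from the compared groups alone, where every call named here was lost.

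Against each single agent, fewer genes differed. The combination differed from TNFR-Ig alone in 11 genes (0.0878%). Arntl, Crem, Syt8 (-0.50), Noa1 (-0.34) and Rbm14 (-0.33) were lower, and H3f3b (1.91, limma adjusted p = 0.0161), Pipox (0.92) and Xrn1 (0.48, limma adjusted p = 0.0018) higher. The other 3, named after their values were seen, were Ncoa5, Dusp6 and Ubap2l, all lower. The combination differed from anti-TWEAK alone in 61 genes (0.487%). These included Arntl, Crem, the transcription elongation gene Leo1 (-0.65), the growth factor-responsive gene Etv5 (-0.58) and Rian (-0.44) as lower. Cd3g (1.56, limma adjusted p = 0.0396), Cd3d (1.54), the killer cell receptor gene Klrd1 (1.64), H3f3b (1.51) and Ciart (1.47, limma adjusted p = 0.0448) were higher. The TNFR-Ig group against the control group had 0 genes called by limma and 553 at an unadjusted p below 0.05, and anti-TWEAK against control had 0 called and 1074 at that level, compared with 3520 for the combination. These comparisons share control arrays, so they are given side by side only. The 553 of 12534 genes for TNFR-Ig, with 6 mice, are no more than an unadjusted p below 0.05 passes where nothing differs. Without combination replicate 1 the counts rose to 786 against TNFR-Ig and to 1276 against anti-TWEAK. They fell to 4 without TNFR-Ig replicate 2 and to 1 without anti-TWEAK replicate 2. Without the seminal vesicle arrays they were 2 and 1, and without the arrays highest in pancreatic RNA 575 and 975. Without combination replicates 7 and 8 they were 12 and 3. With the spread taken from the compared groups alone limma called 0 genes in both.

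Experiment 10 compared the same treatments in other mice and shares no array with experiment 7. There 2200 genes differed between combination and control IgG (17.6%). Of the 1059 genes called in experiment 7, 425 were called in both (161 higher and 264 lower in both, 0 in opposite directions), which is 40.1% of the experiment 7 calls and 19.3% of the experiment 10 calls. Of the experiment 7 calls, 92.6% had the same direction in experiment 10, against 71.8% of all genes tested. Bcl3 (-0.63 ± 0.18, limma adjusted p = 0.0148), Crem (-0.78 ± 0.22, limma adjusted p = 0.0165) and Hsph1 (-0.53 ± 0.11, limma adjusted p = 0.00194) were lower there too. Il1b gave -2.15 ± 0.85 (limma adjusted p = 0.0734) and S100a8 -2.13 ± 0.86 (limma adjusted p = 0.081), of similar size and not called. Tnfrsf12a gave -0.59 ± 0.27 (limma adjusted p = 0.116) and Cd3g 0.19 (limma adjusted p = 0.805).

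The effect itself differed between the experiments in 4 genes (0.0319%), of which 2 were clock activators. The count was 21 without combination replicates 7 and 8 of experiment 7, which share the array set of experiment 10, and 90 without the arrays highest in pancreatic RNA. Arntl had medians of 10.20 in control and 10.01 in combination mice of experiment 10, with ranges that overlapped (-0.07 ± 0.13, limma adjusted p = 0.765). Its difference between experiments was -1.24 ± 0.20 (limma adjusted p = 0.000964). Npas2 gave 0.17 ± 0.08 in experiment 10, and a difference between experiments of -0.71 ± 0.13 (limma adjusted p = 0.00522). H3f3b gave -0.51 ± 0.29 in experiment 10, with a difference of 2.43 ± 0.44 (limma adjusted p = 0.00418), and Lonrf1 -0.15 with a difference of 0.72 ± 0.13 (limma adjusted p = 0.00428). With the spread from the compared groups alone 2 genes were called higher and 0 lower, so Arntl and Npas2 did not pass there. Without the seminal vesicle arrays 0 were called higher and 3 lower, so H3f3b and Lonrf1 did not pass there. Ciart, at 0.08 ± 0.25 in experiment 10, had a difference of 1.94 ± 0.43 that did not pass. In experiment 10 Dbp was higher by 1.35 ± 0.27 (limma adjusted p = 0.0012), Per3 by 0.49 ± 0.16 (limma adjusted p = 0.0373) and Tef by 0.48 (limma adjusted p = 0.0473), and 7 clock genes were higher and 0 lower.

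**Figure D5:**
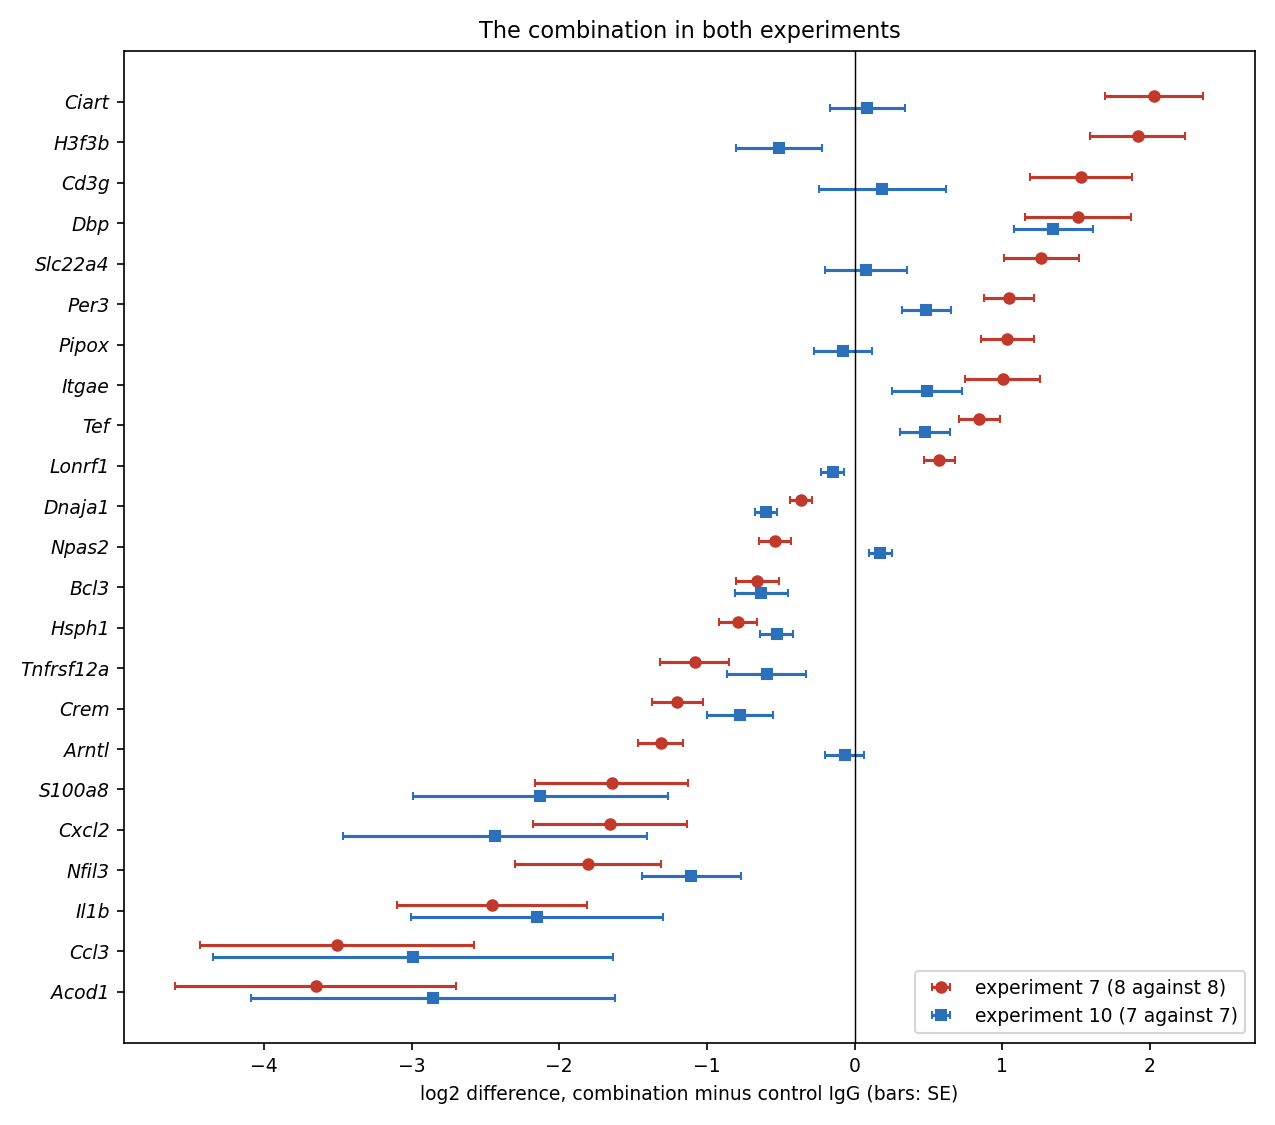
Log2 difference between combination and control IgG (x axis, with SE bars) of genes named in the text (y axis), in experiment 7 (red circles, 8 against 8 mice) and experiment 10 (blue squares, 7 against 7). Bcl3, Dbp and Il1b lie close together in both, while Arntl lies at -1.31 in experiment 7 and -0.07 in experiment 10.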

How the data were processed

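Colon RNA was measured on 72 single-colour Affymetrix arrays. The deposited values are log2 signals of 45101 probe sets made by the authors from their scans, and the submitters' processing notes name RMA, GCRMA, R 2.11.1 and limma 3.4.5 without saying which step made the table. All values were used as deposited. The probe set with the highest mean stood for each of 18193 genes, and genes with a mean above the 40th percentile of probe sets (a log2 value of 2.42) were kept, which left 12534. Differences were fitted with limma 3.58.1 in R 4.3.3 on the 34 arrays of experiment 7, so that its 5 groups share 1 spread, with Benjamini-Hochberg adjustment over all genes tested. Experiment 10 was fitted on its own arrays and the difference between experiments on all 72. The number of arrays limits the precision. Labels number the mice but do not say how they were housed, so p-values measure the spread between these mice.

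Named genes were the 10 largest rises and falls among called genes, up to 3 called members of each of 40 gene lists, every tested gene of the TNF and TWEAK pathway and NF-kB feedback lists, and for a list with no call the 2 members with the smallest p. For other comparisons they were the 5 largest changes each way, or the 5 smallest p-values where fewer than 5 were called. Other genes named were chosen after their values were seen. The members and lists were chosen with earlier results of these data known. The code was tested on 10 simulated data sets with 200 genes changed. For the combination against control IgG, an average of 9.4% of the calls at an adjusted p below 0.05 were false. For the difference between experiments it was 3.8%. The calls of the main comparison may therefore hold more false ones than the threshold implies. Figures were drawn with matplotlib 3.10.9. Alternatives are listed in the closing section, of which leaving out the arrays with pancreatic or seminal vesicle RNA was added after seeing the data. An item withheld from this text is not reported here.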

Additional observations from a re-analysis of the deposited data

Results flagged for a closer look

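In 25 of 276 groups of 8 values checked (9.06%), the highest or lowest array stood apart from the rest by more than Dixon's 95% limit for 8 values, 0.526, which chance alone passes in about 1 group in 20. Combination replicate 7 accounts for several NF-kB genes. It was the highest of its group for Birc3 (12.30), Ikbkb (12.36), Rela (9.34), Relb (8.92), Tnfaip3 (11.52) and Tnip1 (11.56), and also for the granule gene Ngp (8.57) and the platelet gene Gp1bb (4.85), and the lowest for Traf1 (4.07) and Hsph1 (11.90). Combination replicate 2 was the highest for Cd3d (7.69), Cd3e (8.56) and Glycam1 (7.67), a gene of lymph node vessels. Combination replicate 1 was the lowest for Nfkb2 (6.72), replicate 5 the highest for Nlrp3 (3.13) and replicate 6 the highest for the endocrine factor Pax6 (2.92). Among control mice, replicate 8 was the highest for the pancreatic genes Cela3b (9.40), Cpb1 (7.40), Ctrb1 (9.69) and Prss2 (8.57) and for the pancreas mean (7.38). Control replicate 3 was the lowest for Tnfrsf12a (7.74), replicate 7 the highest for Glycam1 (3.81), and replicate 5 had the highest array median (4.77) and the lowest share of values at the floor (37.4%).

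The effect of the combination differed between experiments 7 and 10 in 4 genes by limma's interaction test, with differences of -1.24 for Arntl, -0.71 for Npas2, 2.43 for H3f3b and 0.72 for Lonrf1. The experiments used different mice and arrays, and what set them apart cannot be told apart from this difference.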

How the results depend on the processing

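The calls against control (1059), untreated (876), TNFR-Ig (11) and anti-TWEAK (61), and the genes whose effect differed between experiments (4), moved with the setting. With the compared groups alone they were 311, 0, 0, 0 and 2, and with all 72 arrays 2477, 2209, 732 and 1193. Array weights gave 3098, 3888, 2311, 4280 and 63. Leaving out the combination arrays of the experiment 10 array set gave 515 against control, 405 against untreated, 3 against anti-TWEAK and 21 between experiments. Leaving out arrays with seminal vesicle transcripts gave 80, 43, 2 and 1, and leaving out those high in pancreatic RNA 1881, 575, 975 and 90 for the last 4. A pancreas covariate gave 1861, 154 and 1030 against control, TNFR-Ig and anti-TWEAK. Every probe set gave 1939, 1351 and 23 against control, untreated and TNFR-Ig. Without a filter 13 differed from anti-TWEAK, with an Actb covariate 1352 from untreated, and with quantile scaling 7 between experiments. Without 1 replicate the ranges were 502 to 2438, 140 to 2008, 4 to 786, 1 to 1276 and 4 to 15. The causes were not tested. Mice with the same replicate number correlated from -0.51 to 0.22 in their deviations, none best with its own number. The labels do not say whether the numbers mark pairs, and the main fit did not treat them so. With a replicate block the counts were 1071, 124, 6, 179 and 9. Of 101 named and called genes, 95 kept their direction throughout, and the other 6 are at the floor without the seminal vesicle arrays.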
